A study of Mus musculus with 16 samples.

Results

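The resting transcriptome of a collecting duct line was read from the 8 libraries of filter-grown mIMCD3 cells that had received only the vehicle, DMSO, out of 16 libraries in the series. The members were chosen by their columns in the table of TPM (an abundance divided by transcript length and scaled so that each library has the same total), 4 libraries after 3 days of DMSO and 4 after 6 days, and all 53354 genes of that table were ranked by their mean over the 8. mIMCD3 is an immortalized line of inner medullary collecting duct origin, made from a mouse transgenic for the SV40 early region, it is labelled wild type, and every library of the series came from this 1 line. All cells were first grown for 10 days on permeable filters in RenaLife medium with 5% FBS and a kit of additives that included insulin, epinephrine, hydrocortisone, triiodothyronine, EGF and transferrin, and the medium was then changed daily. The other 8 libraries, 4 at each time, came from cells given 2 µg/mL doxycycline (DOX) in the same vehicle, and they are used here for comparison. The labels do not say that replicates were separate cultures, so p-values measure only the spread between these libraries.

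The collecting duct is the last tubule segment of the kidney, where principal cells take up sodium through ENaC and water through aquaporins under aldosterone and vasopressin, and intercalated cells move acid and base by V-ATPase and anion exchangers. The inner medullary part adds urea transport. An epithelium of this kind rests on a basement membrane of laminin, type IV collagen and heparan sulphate proteoglycans, is held to it by integrins, and is sealed by cadherin junctions, desmosomes and claudin strands.

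Total estimated counts ran from 16933343 to 23960860 in the 8 DMSO libraries, and a floor of 3 counts per library equals 0.125 to 0.177 CPM (counts scaled to the library). A gene is called on if it had at least 1 TPM in all 8 libraries, off if it was under 1 TPM in all 8, and crossing otherwise, and no test is attached to these calls. By this rule 11826 of 53354 genes were on, 3349 were crossing and 38179 were off. Among the 21814 protein-coding genes 10881 were on, which is 49.9% and the background for every list below, and 9956 were off, 3277 of them at 0 TPM in every library. The protein-coding genes that were on had a median level of 19.4 TPM, with 10% of them at or below 3.83 TPM and 10% at or above 105 TPM. In lysates of whole filters, fewer cells expressing a gene and less RNA per cell cannot be told apart. Before any level is read, 4 libraries have to be set apart: transcripts typical of other nephron segments, led by Kap (kidney androgen regulated protein, a proximal tubule gene), reached over 100 TPM of Kap in DMSO-3D replicate 1 and DMSO-6D replicates 2, 3 and 4, against 15.4 to 69.9 TPM in the other 4, as described with the markers.

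Genes of translation made up the top of the list. The 10 highest genes took 8.89% ± 0.678 of all TPM (SD, n = 8), the 100 highest 40.3% ± 2.16 and the 1000 highest 72.2% ± 1.59. Cytosolic ribosomal protein genes, of which 84 of 87 measured were on, held 27.4% ± 2.07, and the 13 protein-coding genes of the mitochondrial genome, all on, held 2.36% ± 0.254. The highest gene, Rps27rt (chr9:114982366-114982739), a retrogene copy of the small-subunit protein gene Rps27, had 13915 TPM in the lowest library, 15558 at the median and 18919 in the highest. Tmsb10, an actin-monomer binding thymosin, had 8394 ± 439.9 TPM, Tpt1, a translationally controlled growth protein, 7818 ± 844, and Eef1a1, the elongation factor that brings aminoacyl-tRNA to the ribosome, 7578 ± 171. These 3 were the only protein-coding genes among the 10 highest that are neither ribosomal protein genes nor copies of one. All other genes of the 20 highest were ribosomal protein genes or their copies, a copy of a mitochondrial gene, mt-Co1, Fau (which encodes a ribosomal protein fused to a ubiquitin-like protein) and Mir6236. In 4 of the 20, the ribosomal protein genes Rps29, Rpl32 and Rps28 and the copy Rps12-ps3, every 3-day value was higher than every 6-day value. Rps29 had 8652, 8946, 8369 and 8127 TPM at 3 days and 7137, 7046, 6342 and 6661 at 6 days. Of the 11826 genes that were on, 0.736% were apart in this direction and 9.48% in the other, together 10.2%.

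**Figure D1:**
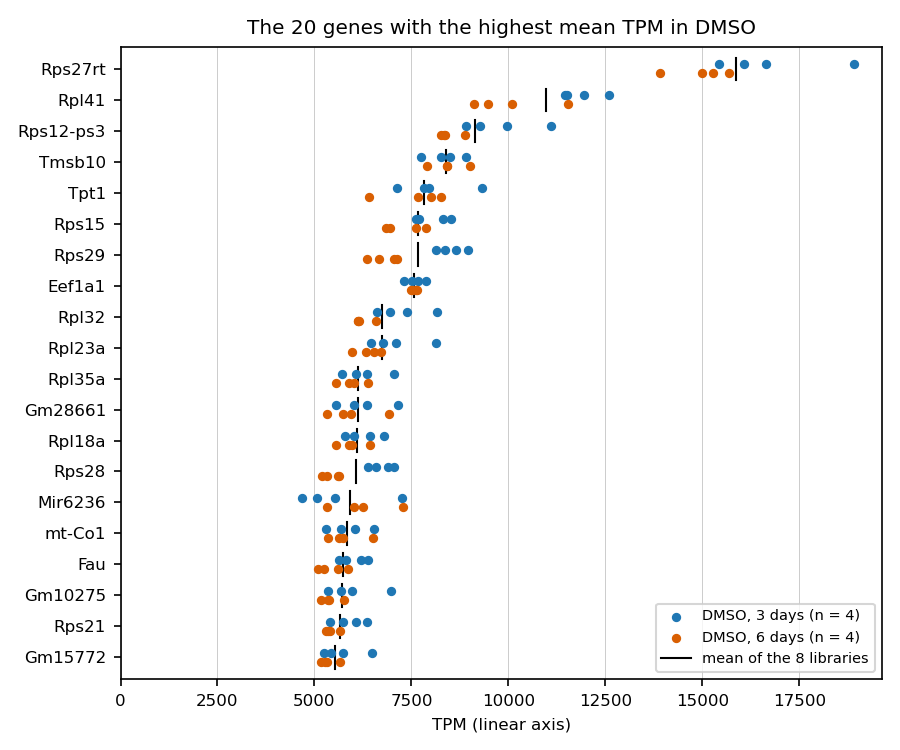
TPM of the 20 genes with the highest mean over the 8 DMSO libraries, on a linear axis that starts at 0; points are single libraries at 3 days (blue) and 6 days (orange), and the black bar is the mean of the 8. Rps27rt stands alone between 13915 and 18919 TPM, and the libraries of the times overlap in 16 of the 20 genes.

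Several of these ranks belong to a copy and not to the parent gene, because both carry the same sequence. The coding sequence below is shown because it is the same 255 bases in Rps27 and in Rps27rt (100% identity), read from the GENCODE transcripts with the start and stop codons in capitals.
Rps27 and Rps27rt: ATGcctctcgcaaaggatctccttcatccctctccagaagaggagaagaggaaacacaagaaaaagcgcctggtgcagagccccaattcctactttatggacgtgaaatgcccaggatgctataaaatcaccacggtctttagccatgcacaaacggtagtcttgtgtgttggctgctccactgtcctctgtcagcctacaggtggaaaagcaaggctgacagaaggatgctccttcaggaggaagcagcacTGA
Of the 344 stretches of 31 bases in the Rps27rt transcript, 91.6% also occur in transcripts of Rps27 (chr3:90212522-90213651), yet the table gives Rps27 only 36.6 TPM in the lowest library, 50.3 at the median and 178 in the highest. Rps27 was 1 of the 5 most variable protein-coding genes with a mean of at least 10 TPM (coefficient of variation, CV, 67.1%), whereas Rps27rt had a spread of 1.36-fold between its lowest and highest library. Rps12-ps3 at 9135 ± 971 TPM shares 100% of its stretches with Rps12, which was listed at 534 ± 67.3, and Gm10275 at 5704 ± 578 shares 96.0% with Rpl12, listed at 372 ± 26.7. Gm15500 at 4736 ± 329.8 shares 99.9% with Rpl5, listed at 144 ± 6.47. Smaller shares were found beside copies with high values. Tpt1 shares 19.85% of its stretches with Tpt1-ps3, listed at a mean of 2656 TPM, Gapdh 26.5% with Gm7336 at 1260, and Ppia 12.8% with Gm10123 at 1747. For all such pairs the split between parent and copy is uncertain. Genes below the 50 highest were not examined for shared sequence. The same holds for Gm28661 (chr1:24614885-24615565), a nuclear copy of mitochondrial sequence listed at 6125 ± 645 TPM, all of whose stretches occur in mt-Co2, the gene of cytochrome oxidase subunit 2, at 1491 ± 443. Pseudogenes took 8.16% ± 0.304 of all TPM and protein-coding genes 88.2% ± 0.331. The shares given above for cytosolic ribosomal protein genes and for the mitochondrial genome leave out copies annotated as pseudogenes, such as Gm10275 and Gm28661. Pseudogenes with the symbol of a ribosomal protein gene took 1.66% ± 0.143.

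Mir6236 was the only gene annotated as a miRNA in the top 20, at 5929 ± 971 TPM. Its gene is 123 bases long (chr9:110281287-110281409) and shares no 31-base stretch with any other GENCODE M21 transcript. Sequence outside that annotation was not searched, so other sources of the reads were not tested. TPM also divides by transcript length, which is short here. The libraries were made from polyadenylated RNA, so the value is of longer reads assigned to the locus and not of the mature product. The sequence of the mature product is given because it identifies the locus (RefSeq, GRCm38.p6, chr9:110281353-110281371, plus strand, seed of bases 2 to 8 in capitals).
Mir6236: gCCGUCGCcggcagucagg
The libraries ran from 4689 to 7292 TPM, a spread of 1.56-fold. miRNA genes together took 1.01% ± 0.152 of all TPM.

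Below the ribosomal genes, several secreted and stress-related products stood high that belong to none of the lists and were named after their values were seen. Mif, a cytokine-like tautomerase, had 3981 ± 199.8 TPM, and the S100 calcium-binding proteins S100a6 and S100a11 had 3951 ± 220.2 and 2148 ± 79.7. Lcn2, the siderophore-binding lipocalin known as a marker of tubular injury, had 715 TPM in the lowest library, 836 at the median and 977 in the highest. Wfdc2, a secreted protease inhibitor of distal epithelia, had 769 ± 60.1 TPM. Ppbp, the precursor of a platelet CXC chemokine, had 506 ± 80.3. The metallothioneins Mt1 and Mt2, which bind zinc and are induced by glucocorticoids and metals, had 1102 ± 68.9 and 902 ± 32.9 TPM. Of the interferon-inducible genes, Ifi27 had 731 ± 66.6 and Ly6e 728 ± 50.2. Chd9, a chromodomain helicase, is listed at 954 ± 121 TPM, and the glycolytic genes Ldha, Pkm and Pgam1 had 1426 ± 156, 1229 ± 100.5 and 1409 ± 143. The common reference genes, all 14 of which were on, ran from Gusb at 13.9 ± 0.962 to Rpl13a at 5449 ± 513 TPM, with Actb at 2006 ± 224 and Gapdh at 4247 ± 315.

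The label of inner medullary collecting duct was checked against 14 markers of principal cells and that segment. Of these 4 were on, 1 was crossing and 9 were off. Npnt, a basement membrane ligand of integrin alpha 8, was the highest at 27.7 TPM in the lowest library, 29.3 at the median and 37.4 in the highest, followed by the transcription factors Tfcp2l1 at 5.03 ± 0.721 and Gata3 at 2.67 ± 0.491 and the ENaC alpha subunit Scnn1a at 2.83 ± 0.305 TPM. Aqp3, the basolateral water channel, crossed the threshold at 0.513 to 1.8. The defining genes were at or near 0: Aqp2, the vasopressin-regulated water channel, ran from 0.038 to 0.384 TPM, Avpr2, the vasopressin receptor, from 0.039 to 0.92, Slc14a2, the urea transporter, from 0 to 0.416, and Scnn1b and Scnn1g, the other ENaC subunits, from 0 to 0.158 and 0 to 0.118. Hsd11b2, which guards the mineralocorticoid receptor from cortisol, was off as well, with 0.436 to 0.882 TPM. Some of these traces depended on the libraries read. Over the 4 libraries under 100 TPM of Kap, Aqp2 had a mean of 0.061 TPM, against 0.184 over all 8. Kcnj1 had 0.042 against 0.129, and Slc14a2 went the other way, with 0.225 against 0.136. The source of these traces was not tested. All 9 general epithelial markers were on, but at the RNA level the data go against the segment label for most genes that define it, and the cells are called by the name of the line. Intercalated cell markers gave 0 of 12 on and 2 crossing, Slc26a4 and Kit, and the intercalated subunits Atp6v1b1, Atp6v1g3 and Atp6v0d2 reached no more than 0.457, 0.214 and 0.195 TPM in any library.

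Markers of other cells gave a mixed picture. Of the fibroblast and mural markers 0 of 10 were on and 1 was crossing, Col1a1 at 0.058 to 1.11 TPM, with Dcn and Lum at 0.199 and 0.028 TPM in their highest libraries. Endothelial markers had 1 of 8 on, Flt1, a VEGF receptor, at 3.92 ± 0.763 TPM, while Pecam1, Cdh5 and Vwf were off. Podocyte markers had 2 of 6 on, the sialomucin Podxl at 18.3 ± 1.28 and the actin-linked Synpo at 9.07 ± 1.38, with Nphs1 off. Urothelium markers had 1 of 8 on, the surface protein Psca at 17.8 ± 1.73 TPM, with Krt5, Upk3b at 0.888 to 1.71 and Upk1a at 0.429 to 1.4 crossing and Upk2 and Upk3a off. Immune markers had 3 of 9 on, the lysosomal Cd68 at 21.6 ± 2.34, the macrophage receptor Csf1r at 7.58 ± 1.48 and the invariant chain Cd74 at 2.96 ± 0.634, with Ptprc, the pan-leukocyte phosphatase, at no more than 0.381 TPM. Csf1r overlaps the protein-coding gene Hmgxb3, so its value is uncertain.

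Proximal tubule markers varied widely between libraries of the same group. Kap (chr6:133849851-133853762) had 161, 34.2, 69.9 and 23.4 TPM in DMSO-3D replicates 1 to 4 and 15.4, 201, 182 and 103 in DMSO-6D replicates 1 to 4, a spread of 13.1-fold. The 4 libraries with over 100 TPM included 1 at 3 days and 3 at 6 days and the lowest value of all was at 6 days. Between 6 and 3 days the 14 proximal markers had a median log2 fold change of 0.70, and the thick limb and distal convoluted tubule lists, with 3 genes tested in each, had 0.54 and 0.44, with 0 members called in any of them. For Kap the log2 fold change was 0.71 ± 0.77 (SE, edgeR glmTreat adjusted p = 1.0). Gpx3, a secreted glutathione peroxidase of the proximal tubule, followed Kap closely, at 71.2, 16.5, 31.6 and 11.7 TPM and 8.81, 83.1, 78.6 and 45.6 TPM in the same libraries. Its ratio to Kap stayed between 41.3% and 57.2%, with a CV of 10.9%. Slc34a1, the phosphate cotransporter, ran from 1.57 to 17.2 TPM and Miox, an inositol oxygenase, from 1.32 to 14.5, and their ratios to Kap varied by 10.1% and 9.95%. Of 14899 genes with a mean of at least 0.5 TPM, 17 kept a ratio to Kap that varied by under 30% both over the 8 DMSO libraries and over the 8 DOX libraries, and 5 of these were on the proximal tubule list. The 17 included Fbp1 and Pck1 of gluconeogenesis, Cyp4b1, Cyp2e1, Acsm2, Slc22a6 and Pth1r. With Kap they summed to 35.1 TPM in the lowest DMSO library and 418 in the highest, or 0.00352% and 0.0419% of all TPM. Kap was chosen as the reference after its values were seen.

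Some genes of the thick limb and the distal convoluted tubule were also higher in libraries with more Kap, at lower levels and mostly with looser ratios to it. An exception was Slc12a1, a cotransporter of the thick limb, whose ratio to Kap varied by 22.8% in DMSO and 24.4% in DOX. Its mean was under the 0.5 TPM asked for in the search for steady ratios, so it was not among those genes. Umod, the uromodulin of the thick limb, had 3.69, 1.18, 3.56 and 1.19 TPM at 3 days and 0.886, 4.6, 3.53 and 2.79 at 6 days, and Slc12a3, the thiazide-sensitive cotransporter, had 2.63, 0.493, 1.64 and 0.667 and 0.286, 2.63, 2.67 and 1.32. Both had their lowest value in DMSO-6D replicate 1, as Kap did, and their ratios to Kap varied by 42.4% and 31.4%. Calb1, calbindin, had 3.36, 1.17, 1.21 and 1.06 and 0.752, 2.82, 3.12 and 2.82 TPM, and Egf ran from 0.862 to 2.56, with its lowest value in DMSO-3D replicate 2 and a ratio to Kap that varied by 77%. Trpm6, a magnesium channel of the distal convoluted tubule, was the only marker of these segments that was on, at 2.58 to 4.28 TPM, and it had its lowest value in DMSO-6D replicate 2, where Kap was highest. Krt8, Epcam and Pax8 were steady beside them, with highest over lowest ratios of 1.29, 1.32 and 1.26. In the 4 libraries under 100 TPM of Kap, 3 of the 14 proximal markers were still on, 2 were crossing and 9 were off, against 7 on, 3 crossing and 4 off in the other 4 libraries. Kap is itself 1 of the 14, and 5 others kept a steady ratio to it, so this difference follows in part from the split. The limit of 100 TPM was set after the values were seen. The summed level of the 14 markers ran from 21.7 to 251 TPM over the DMSO libraries and from 30.0 to 140.5 TPM over the DOX libraries. Where these transcripts came from was not tested, and the calls on proximal, thick limb and distal tubule genes rest on which libraries are read.

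**Figure D2:**
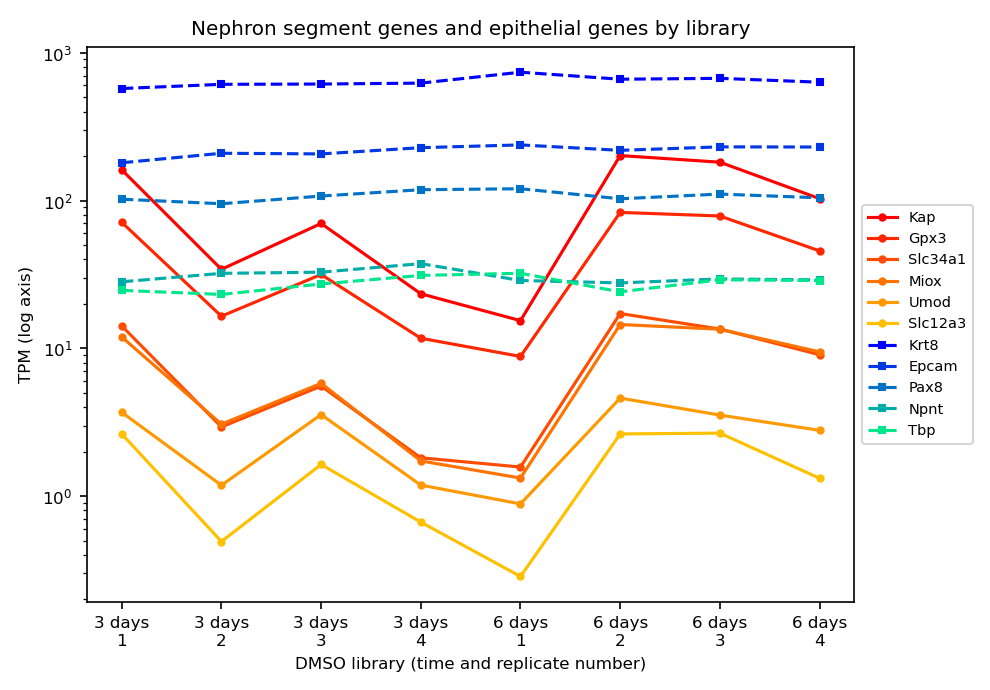
TPM on a log axis in each DMSO library, by time and replicate number, for nephron segment genes (solid lines: Kap, Gpx3, Slc34a1, Miox, Umod, Slc12a3) and for epithelial and reference genes (dashed lines: Krt8, Epcam, Pax8, Npnt, Tbp). The solid lines rise and fall together, Kap between 15.4 and 201 TPM, while the dashed lines stay nearly level.

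Few ion channels were on. Of the 93 potassium channel genes 7 were on, 6 were crossing and 80 were off. Kcnk1, a two-pore channel of weak inward rectification, had 76.98 TPM in the lowest library, 89.1 at the median and 104 in the highest, and Kcnk5, an alkaline-activated channel of the same family, 16.8 ± 1.78 TPM. Kcnj16, an inward rectifier subunit that usually pairs with Kcnj10, had 12.5 ± 2.34, whereas Kcnj10 ran from 0 to 0.088 and Kcnj1, the secretory ROMK channel, from 0 to 0.356. The beta subunit Kcnab2 had 14.01 ± 2.52 TPM. None of the 12 aquaporins was on, and Aqp1 and Aqp3 were crossing. Of 23 sodium channel genes only Scnn1a was on, and of 26 voltage-gated calcium channel genes only Cacnb3, a cytosolic beta subunit at 59.3 ± 6.18, and Cacna1a at 4.84 ± 2.13. Neurotransmitter-gated channels had 5 of 60 on, with the acetylcholine receptor subunit Chrnb1 highest at 40.4 ± 4.83 TPM. The share of genes on in these 5 lists was at most 8.33%, against 49.9% of all protein-coding genes.

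Among other channel families, anion channels and calcium release channels lay above the background and the rest below it. Anion channels had 19 of 32 on (59.4%), led by Clic1 at 210.3 TPM in the lowest library, 234 at the median and 257 in the highest, then Clic4 at 40.5 ± 3.73, the endosomal exchanger Clcn3 at 40.2 ± 2.69 and Lrrc8d of the volume-regulated channel at 29.7 ± 3.01 TPM. Ano1, a calcium-activated chloride channel, had 23.8 ± 1.61. TRP channels had 8 of 28 on (28.6%), with the lysosomal Mcoln1 at 50.5 ± 7.08, the osmosensitive Trpv4 at 24.6 TPM in the lowest library, 29.6 at the median and 37.5 in the highest, and Pkd2, the polycystin of primary cilia, at 20.6 ± 2.18. All 3 IP3 receptors and all 3 Orai channels were among the 8 of 11 calcium release and store-operated genes that were on (72.7%), and all 3 ryanodine receptors were off. Of the P2X and mechanosensitive channels 6 of 17 were on (35.3%), and Piezo1, a stretch-gated channel, had 23.7 ± 3.7 TPM and the ATP-gated P2rx4 34.4 ± 3.99. Of the connexins and pannexins 5 of 23 were on (21.7%), with Gja1 at 27.7 ± 2.09.

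Transporters lay near the background, with 176 of 381 solute carriers on, 31 crossing and 174 off. The mitochondrial phosphate carrier Slc25a3 was the highest at 529.6 TPM in the lowest library, 541 at the median and 556 in the highest, and with a CV of 1.52% it was the least variable of all protein-coding genes with a mean of at least 10 TPM. Slc3a2, the heavy chain of amino acid exchangers, had 257 ± 31.4 TPM, the adenine nucleotide carriers Slc25a5 and Slc25a4 239.9 ± 13.97 and 189 ± 12.3, and Slc2a1, the GLUT1 glucose carrier, 187 ± 22.6. The carriers that define nephron segments were low or followed Kap, as given above. Of the ion pump genes 9 of 22 were on, among them Atp1b1, the beta chain of the sodium pump, at 173 TPM in the lowest library, 199 at the median and 222 in the highest and the endoplasmic calcium pump Atp2a2 at 102 ± 10.3 TPM. The gastric and colonic proton pumps Atp4a and Atp12a were off. V-ATPase had 17 of 26 subunits on, with Atp6v1f at 389.6 ± 25.1 and Atp6v0c at 244 ± 21.9, and those off included the intercalated forms. ABC transporters had 22 of 50 on, led by the translation factors Abcf2 and Abce1 at 70.3 ± 6.32 and 67.4 ± 8.47, while among exporters Abcc1 had 29.98 ± 2.95 and Abcb1b, a multidrug pump, 15.2 ± 1.43. Of the FXYD regulators of the sodium pump, Fxyd5 had 26.3 ± 4.51 TPM, and Fxyd2, a distal and proximal tubule form, ran with Kap from 3.9 to 23.3.

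**Figure D3:**
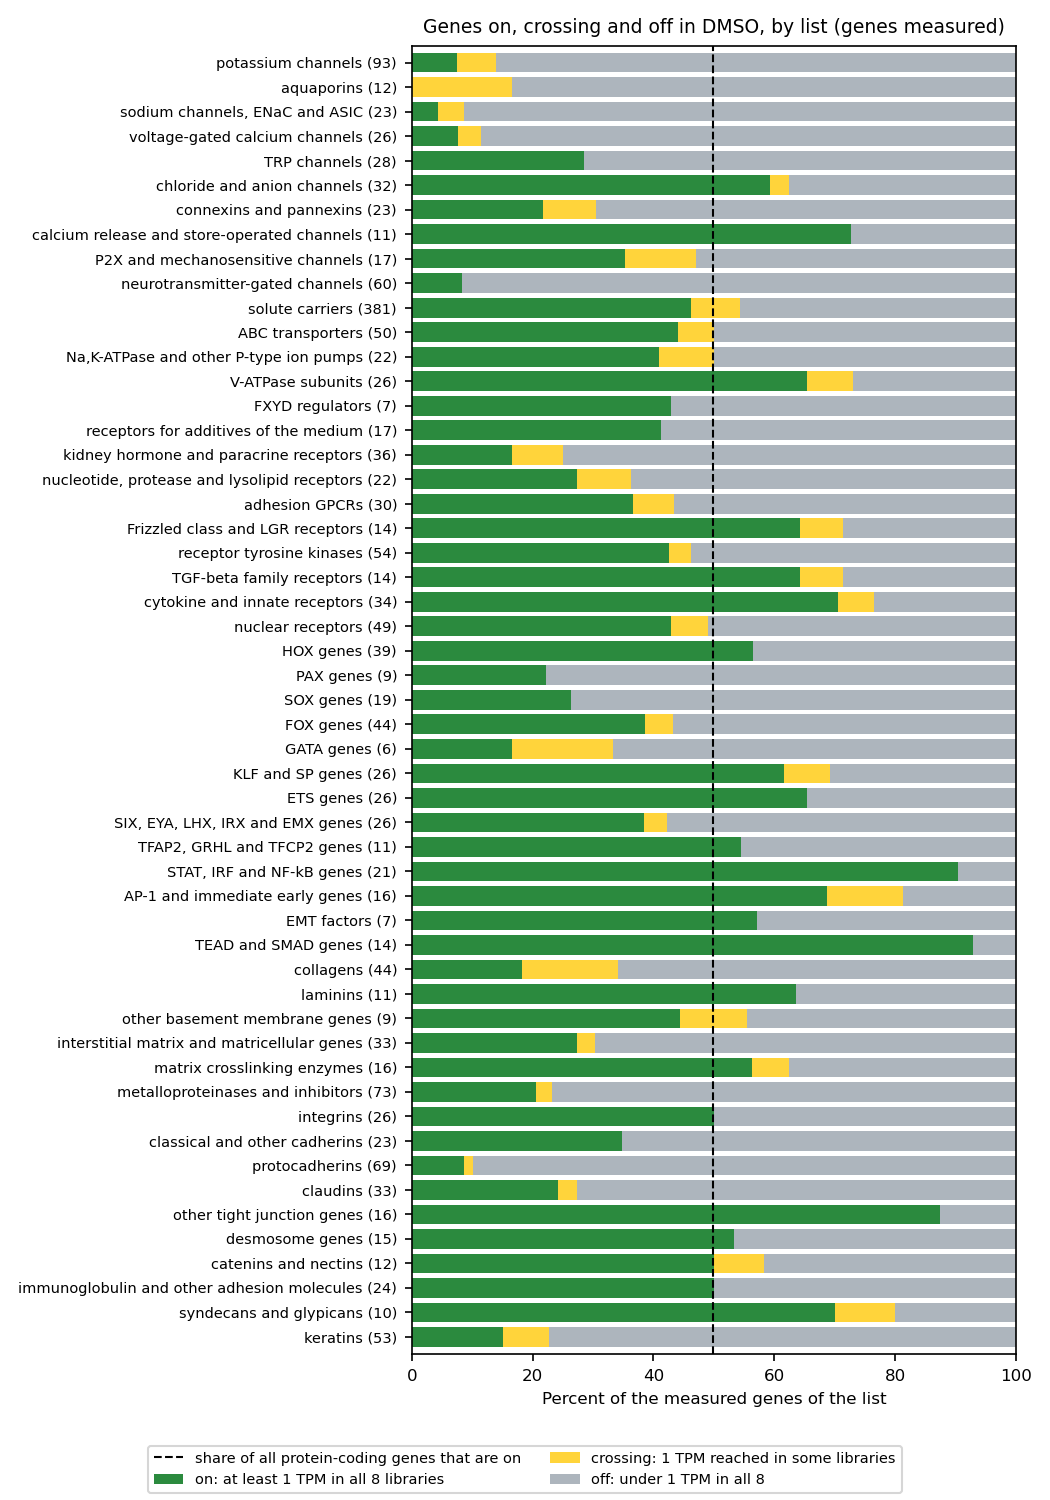
Percent of the measured genes of each list (number measured in brackets) that were on (green), crossing (yellow) or off (grey) in the 8 DMSO libraries, with a dashed line at the 49.9% of all protein-coding genes that were on. Potassium, sodium, calcium and neurotransmitter-gated channels and protocadherins lie far left of the line, and STAT, IRF and NF-kB genes, TEAD and SMAD genes and tight junction genes far right.

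The medium held ligands for several receptors, and 7 of 17 such receptors were on. Tfrc, which takes up transferrin, had 62.8 TPM in the lowest library, 70.3 at the median and 76.8 in the highest, and Egfr, the receptor of EGF, had 33.4 TPM in the lowest library, 38.3 at the median and 46.5 in the highest. The glucocorticoid receptor Nr3c1 had 20.9 TPM in the lowest library, 22.8 at the median and 24.7 in the highest, and the mineralocorticoid receptor Nr3c2, which also binds corticosteroids, had 2.74 ± 0.513 TPM. For insulin, Insr had 8.14 ± 0.688 and Igf1r 13.2 ± 1.2. For triiodothyronine, Thra had 11.9 ± 1.19 and Thrb was off at 0 to 0.116. All 9 adrenergic receptors, which bind epinephrine, were off. Adrb1 ran from 0.046 to 0.871 TPM and Adra1b from 0.139 to 0.484, Adra2b reached 0.184 and Adra1a, Adra1d, Adra2a and Adrb3 no more than 0.072, 0.038, 0.047 and 0.079, and Adra2c was at 0 in all 8 libraries.

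Of 36 receptors for kidney hormones and paracrine factors 6 were on and 27 were off. Ghr, the growth hormone receptor, had 33.2 TPM in the lowest library, 38.98 at the median and 45.03 in the highest, the adenosine receptor Adora1 15.3 ± 1.82 TPM, and Ptger4, a prostaglandin E2 receptor coupled to cAMP, 11.7 ± 1.21. Pth1r crossed the threshold and belonged to the genes that moved with Kap. Agtr1a, Ednrb and Oxtr were off. Protease and nucleotide receptors were present at moderate levels, with the thrombin receptor F2r at 43.6 ± 4.66, F2rl1 at 23.2 ± 3.03 and the purinergic P2ry2 at 6.67 ± 0.487 TPM. Adgrg1 was the highest adhesion G protein-coupled receptor, at 71.9 TPM in the lowest library, 87.1 at the median and 125 in the highest, among 11 of 30 on.

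Growth factor and cytokine receptors held more genes that were on. Of 54 receptor tyrosine kinases 23 were on, led by the collagen receptor Ddr1 at 44.6 TPM in the lowest library, 49.8 at the median and 60.3 in the highest, the hepatocyte growth factor receptor Met at 43.3 ± 6.1 and the ephrin receptor Epha2 at 41.6 ± 3.7, with Erbb2 at 18.5 ± 2.16 and Erbb3 at 17.4 ± 1.97. Pdgfra, Pdgfrb and Kdr were off. TGF-beta family receptors had 9 of 14 on, with Tgfbr2 at 18.9 ± 1.16 and Bmpr1a at 16.95 ± 1.56, and Frizzled class and LGR receptors 9 of 14, with Smo at 22.9 ± 2.09, Fzd6 at 20.98 ± 2.31 and Lgr4 at 13.9 ± 1.54. Cytokine and innate receptors had 24 of 34 on, which is 70.6%. Tnfrsf1a had 66.1 ± 4.6 TPM, the interferon receptor chains Ifnar2 and Ifngr1 55.1 ± 4.46 and 33.6 ± 2.78, and Il17rc 51.97 ± 7.64, while the lymphocyte chains Il2rb, Il2rg and Il7r were off.

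Transcription factors of kidney tubule origin were present. Pax8, which with Pax2 specifies the nephric lineage, had 95.1 TPM in the lowest library, 106 at the median and 120.1 in the highest, and Pax2 20.8 ± 2.83 TPM, and the other 7 PAX genes were off. Of the 39 HOX genes 22 were on, and they divided by cluster. Cluster B had 9 of 10 on and summed to 188 ± 14.1 TPM, cluster A 10 of 11 and 98.1 ± 8.75, and cluster D 3 of 9 and 10.9 ± 0.835. All 9 measured genes of cluster C were off, with a sum of 1.11 ± 0.185 TPM. Hoxb9 was the highest at 58.5 TPM in the lowest library, 62.8 at the median and 73.1 in the highest, followed by Hoxa9 at 44.98 ± 6.45. Emx2 and the Iroquois genes Irx2, Irx3 and Irx1 had 14.9 ± 2.51, 14.5 ± 1.63, 14.3 ± 1.57 and 10.99 ± 2.27 TPM, whereas Lhx1 and Six2, genes of the embryonic kidney, were off. The epithelial ETS factors Ehf and Elf3 were high at 71.9 ± 4.43 and 66.2 ± 3.27, and Grhl2, which maintains epithelial junction genes, had 24.6 ± 2.44. Gata2 was off, with 0.017 to 0.445 TPM.

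The factors of interferon, NF-kB, Hippo and TGF-beta signalling were nearly all on. STAT, IRF and NF-kB genes had 19 of 21 on, with Irf7, a master regulator of interferon genes, at 82.2 TPM in the lowest library, 91.95 at the median and 100.03 in the highest, Rela at 79.3 ± 8.17, and only Irf4 and Stat4 off. TEAD and SMAD genes had 13 of 14 on, with Smad4 at 65.04 ± 7.51, Tead2 at 63.02 ± 7.66 and the coactivators Wwtr1 and Yap1 at 38.6 ± 2.46 and 29.2 ± 3.18. AP-1 and immediate early genes had 11 of 16 on, Jund highest at 191 ± 18.9 and Junb at 131 ± 17.3, with Myc at 69.5 ± 7.82 and Fos at 6.29 ± 1.01. Among nuclear receptors, 21 of 49 were on, led by Nr2f6 at 58.2 ± 7.11 and the oxysterol receptor Nr1h2 at 52.8 ± 5.71, and the vitamin D receptor Vdr was off at 0.174 to 0.569. Foxm1, a factor of the cell cycle, was the highest FOX gene at 42.8 ± 3.31, Klf3 the highest KLF gene at 68.9 ± 6.38 and Sox4 the highest SOX gene at 31.7 ± 3.35. Of 7 factors linked to epithelial-mesenchymal transition, Twist2 at 4.95 ± 0.783, Twist1 at 2.22 ± 0.368, Zeb2 at 1.93 ± 0.769 and Snai3 at 1.75 ± 0.287 were on at low level, and Snai1, Snai2 and Zeb1 were off.

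Among matrix genes, most laminin chains were on and most collagens were off. Of 11 laminin chains 7 were on, among them Lama5, the alpha chain of mature tubular basement membrane, with 65.6 TPM in the lowest library, 77.7 at the median and 113 in the highest, Lamb1 60.9 ± 7.09, Lamb3 47.1 ± 6.14, Lamc1 35.2 ± 3.8, Lama3 33.1 ± 3.17 and Lamb2 32.01 ± 6.25 TPM. Lama3 and Lamb3 encode chains of the laminin of epithelial hemidesmosomes. Lama1, Lama2, Lama4 and Lamc3 were off. Collagens had 8 of 44 on, with Col18a1, the endostatin precursor of basement membranes, at 84.4 TPM in the lowest library, 92.9 at the median and 115 in the highest. The type IV chains of mature kidney basement membrane, Col4a3, Col4a4 and Col4a5, had 7.38 ± 1.48, 7.65 ± 1.44 and 6.08 ± 0.981 TPM and stood above the general chains, of which Col4a1 crossed the threshold at 0.834 to 1.98 and Col4a2 was off at 0.348 to 0.762. The libraries of Col4a3 and Col4a1 did not overlap. Agrn, a heparan sulphate proteoglycan, had 109 ± 17.9 TPM and Hspg2, perlecan, 15.8 ± 3.24, whereas Nid1, a linker of laminin and collagen, was off at 0.027 to 0.141. Of the fibrillar collagens, Col3a1 and Col1a2 were off and Col1a1 crossed the threshold in 1 library, DMSO-6D replicate 1.

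Of the interstitial matrix and matricellular genes 9 of 33 were on, and secreted matricellular proteins led them. Spp1, osteopontin, had 682 TPM in the lowest library, 844 at the median and 935 in the highest, and the YAP-responsive Ccn1 and Ccn2 had 236 ± 49.1 and 179 ± 25.1 TPM. Ltbp3, which stores latent TGF-beta, had 118 ± 16.3, Fn1, fibronectin, 35.002 ± 7.24, and Sparc 19.3 ± 2.36, and Tnc, Postn and Vcan were off. The collagen hydroxylases P4ha1, P4ha2 and Plod2 had 182 ± 15.3, 126 ± 20.6 and 66.8 ± 5.59 TPM, though Lox itself was off. Timp2 led the metalloproteinases and inhibitors at 170.1 ± 12.3, with 15 of 73 on, Adamts1 at 84.7 ± 13.3, Mmp7 at 9.08 ± 0.978 and Mmp2 off at 0 to 0.354.

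Integrin genes were 13 of 26 on. Itgb1 had 178 TPM in the lowest library, 200.5 at the median and 228 in the highest, and its laminin-binding partner Itga3 122 TPM in the lowest library, 136 at the median and 161 in the highest. Itgb5, Itgav, Itga6, Itgb6 and Itgb4 followed at 63.5 ± 8.31, 46.7 ± 6.63, 39.3 ± 4.37, 28.5 ± 4.71 and 23.3 ± 2.68 TPM. Itga8, the receptor of nephronectin, was off at 0 to 0.239, as were the leukocyte integrins Itgb2, Itgal and Itgam. Itga1, a collagen receptor, was on at 2.005 ± 0.341 and is met again in the comparison with DOX. Syndecans were led by Sdc4 at 89.7 ± 4.66 and Sdc1 at 50.95 ± 4.2 TPM.

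**Figure D4:**
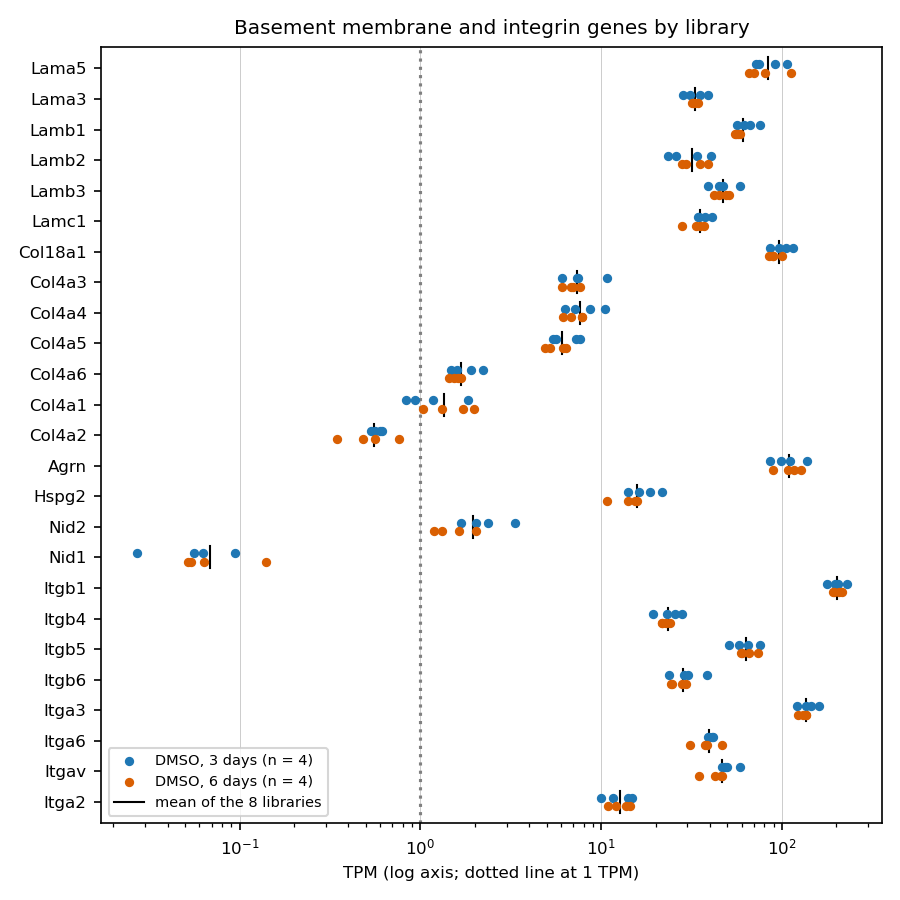
TPM on a log axis of laminin, type IV and XVIII collagen, other basement membrane and integrin genes in single DMSO libraries at 3 days (blue) and 6 days (orange), with the mean of the 8 as a black bar and a dotted line at 1 TPM. Itgb1 and Itga3 lie above 100 TPM in all libraries, Col4a3 to Col4a6 lie above the line, and Nid1 and Col4a2 lie below it.

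Junction genes were of the simple epithelial kind. Cdh16, the kidney-specific cadherin, had 83.5 TPM in the lowest library, 95.8 at the median and 111 in the highest, and Cdh1, E-cadherin, 72.4 TPM in the lowest library, 77.9 at the median and 88.6 in the highest, so the libraries of these genes lay close together. Cdh6 had 28.7 ± 3.74 and Cdh17 16.1 ± 1.16 TPM, and 8 of 23 cadherins were on, among them Cdh2 at 6.36 ± 1.23. Ctnnb1, beta-catenin, had 261 ± 18.6 and Ctnna1 229 ± 15.2. Claudins had 8 of 33 on, and below Cldn4 and Cldn7 came Cldn3 at 96.3 TPM in the lowest library, 109 at the median and 120.1 in the highest, Cldn12 at 51.1 ± 5.76, Cldn1 at 13.7 ± 1.56, Cldn8 at 5.06 ± 0.615 and the cation-permeable Cldn2 at 3.28 ± 0.70 TPM. The thick limb claudins Cldn16 and Cldn19 were off. Other tight junction genes had 14 of 16 on, with F11r at 99.4 ± 10.97, Tjp1 at 45.1 ± 5.23 and Ocln at 17.7 ± 1.67, and only the endothelial Jam2 and Jam3 off. Desmosomes had 8 of 15 on, and each part was represented, with Jup at 91.4 ± 9.08, Dsg2 at 51.9 ± 5.31, Dsc2 at 17.3 ± 2.17, Pkp2 at 43.2 ± 4.39 and Dsp at 42.3 ± 4.94, while the skin forms Dsg1a, Dsg3 and Dsc3 were off.

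Keratins of simple epithelium were all high, and among 53 keratin genes 8 were on. After Krt18, Krt8 and Krt19 came Krt7 at 271 TPM in the lowest library, 324 at the median and 382 in the highest and Krt20, known from intestine and urothelium, at 130.05 TPM in the lowest library, 145 at the median and 155 in the highest. The stratified forms Krt14, Krt17 and Krt6a were off and Krt5 crossed the threshold at 0.499 to 1.04 TPM. Of the other adhesion molecules, Bcam, a laminin receptor, had 101 ± 11.4 TPM, with L1cam at 22.4 ± 4.94 and Cd44 at 18.1 ± 1.57, and Icam1 was off at 0.149 to 0.462.

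Promoters of genes that were on differed in base composition from those of genes that were off. RefSeq (GRCm38.p6) gave a 300-base window, 250 bases before to 50 after the start, for 16447 of the 21814 protein-coding genes. The median ratio of observed to expected CG dinucleotides was 0.791 over 8661 genes that were on, 0.433 over 656 crossing and 0.24 over 7130 that were off, and the median GC content was 61.7%, 56.0% and 49.7%. The letters TATAAA, searched on the gene's strand between 45 and 16 bases before the start, occurred in 1.02% of promoters of genes on, 4.12% of those crossing and 5.08% of those off, and in 2.9% of all. Among the 100 highest genes with a promoter the share was 4.0%. These are descriptions over genes, which are not replicates. The promoters below show a high gene with many CG dinucleotides, a high gene with few and a gene that was off, with every CG in capitals.
Ppia (chr11:6415617-6415916, plus strand): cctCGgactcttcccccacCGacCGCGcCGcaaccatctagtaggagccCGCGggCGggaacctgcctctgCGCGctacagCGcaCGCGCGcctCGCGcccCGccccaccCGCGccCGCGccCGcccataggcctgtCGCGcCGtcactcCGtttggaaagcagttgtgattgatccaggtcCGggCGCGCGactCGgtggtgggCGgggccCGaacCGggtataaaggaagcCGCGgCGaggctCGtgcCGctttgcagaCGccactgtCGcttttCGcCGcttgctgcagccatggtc
Krt20 (chr11:99438104-99438403, minus strand): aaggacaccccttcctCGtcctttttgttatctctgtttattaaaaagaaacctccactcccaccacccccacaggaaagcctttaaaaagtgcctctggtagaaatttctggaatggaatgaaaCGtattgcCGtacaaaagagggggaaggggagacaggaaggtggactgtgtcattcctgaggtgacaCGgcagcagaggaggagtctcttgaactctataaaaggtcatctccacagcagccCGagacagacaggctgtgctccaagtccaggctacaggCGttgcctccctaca
Aqp2 (chr15:99578806-99579105, plus strand): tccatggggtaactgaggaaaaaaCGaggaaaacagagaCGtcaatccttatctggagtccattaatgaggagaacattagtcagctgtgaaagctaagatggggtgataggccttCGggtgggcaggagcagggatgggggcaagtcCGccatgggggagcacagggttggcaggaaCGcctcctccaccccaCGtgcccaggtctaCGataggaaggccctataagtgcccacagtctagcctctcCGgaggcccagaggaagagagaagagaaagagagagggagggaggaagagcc
Ppia, cyclophilin A at 3929 ± 348 TPM, holds 43 CG in this window and a ratio of 1.16. Krt20 holds 6 and a ratio of 0.32, and Aqp2 holds 8 and a ratio of 0.361. Both Ppia and Krt20 have TATAAA starting 29 bases before the start, and Aqp2 has no match to these letters in that stretch.

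The spread between the 8 libraries was largest for low genes. The median CV was 24.4% over the 672 protein-coding genes between 1 and 2 TPM, 11% over the 3715 between 10 and 30 TPM and 8.34% over the 1031 between 100 and 1000 TPM, and it was 8.57% over the 125 at 1000 TPM and above. The most variable genes with a mean of at least 10 TPM were Hist1h2af, a replication-dependent histone H2A gene, with 104% and 1.14 to 53.5 TPM, then Kap, Gpx3, Rps27 and Fxyd2. Hist1h2af had 1.14, 16.9, 20.3 and 24.1 TPM in the 3-day replicates 1 to 4 and 53.5, 2.22, 7.55 and 6.34 in those of 6 days, so its lowest and highest values were in replicate 1 of each time. After Slc25a3, the steadiest were Gnas, the stimulatory G protein subunit, at 534 TPM in the lowest library, 552 at the median and 569 in the highest, Tfe3, a lysosomal transcription factor, at 14.8 ± 0.309, Eef1a1 and Arpc1a, an Arp2/3 subunit, at 119 ± 2.73 TPM. Of the genes given with values here, 40 overlap another annotated protein-coding gene on either strand, and since the strand setting of the quantification is not given in the sources used here, the levels of Adora1, Arpc1a, Atp1b1, Avil, Avpr2, Col18a1, Col4a1, Col4a2, Csf1r, Ctnna1, Ctnnb1, Erbb2, Foxm1, Gapdh, Gata3, Gm29609, Gnas, Ifnar2, Irf7, Itga1, Junb, Kcnab2, L1cam, Lamb3, Ltbp3, Nr2f6, Piezo1, Ptger4, Rpl12, Rpl13a, Rpl5, Rps12-ps3, Rps27rt, Scnn1b, Slc14a2, Slc34a1, Snai3, Tead2, Thra and Timp2 are uncertain to that extent.

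To ask whether the baseline moved with 3 more days on the filter, the estimated counts of DMSO-6D were compared with DMSO-3D. The 6-day cells also had 3 more days of DMSO, and time on the filter and time in DMSO cannot be told apart. edgeR's glmTreat with a 1.2-fold threshold called 0 of 13234 genes (0%), and 172 genes (1.3%) had an unadjusted p under 0.05, while DESeq2 and limma also called 0 with 28 and 38 such genes. Without a fold threshold 62 genes passed (0.468%), 43 of them higher at 6 days (0.325%) and 19 lower (0.144%), with a median size of 0.299 and a largest of 0.80 in log2. With each DMSO library left out in turn that count ran from 7 (without DMSO-3D replicate 4) to 209 (without DMSO-6D replicate 4), and with log2 of Kap TPM as a covariate it was 210, so the 62 genes rest on which libraries are read. The median log2 fold change over all tested genes was 0.001, but TMM scaling sets the bulk of genes near 0, so this value cannot show whether the baseline moved. In TPM, 9.48% of genes on were apart with higher values at 6 days and 0.736% with higher values at 3 days. Cytosolic ribosomal protein genes held a mean of 28.8% of TPM at 3 days (26.6% to 31.5%) and 26.1% at 6 days (25.6% to 27.1%).

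The 12 genes nearest to a difference were given by the smallest glmTreat p, and none of them was called. Gm29609, a predicted gene, had 2.72, 3.23, 2.54 and 2.3 TPM at 3 days and 1.2, 2.06, 1.65 and 1.02 at 6 days, and its log2 fold change was -0.80 ± 0.16 (SE, edgeR glmTreat adjusted p = 1.0). Oas2, an interferon-inducible oligoadenylate synthetase, had 10.1, 11.97, 10.6 and 13.4 and 8.83, 8.15, 8.05 and 9.13, a log2 fold change of -0.46 ± 0.07 (SE). Zbp1, a sensor of Z-form nucleic acid, had 8.49, 9.03, 9.11 and 10.9 and 6.46, 7.35, 5.51 and 6.28, a log2 fold change of -0.57 ± 0.13 (SE). In these 3 genes every 3-day value was higher than every 6-day value. Gvin1 and Rnf213, both interferon-inducible, had log2 fold changes of -0.56 ± 0.11 and -0.44 ± 0.07 (SE) with overlapping libraries. Nlrc5, the transactivator of MHC class I genes, had -0.68 ± 0.14 (SE) in counts, but its TPM overlapped widely, at 1.12, 1.36, 2.15 and 3.06 and 1.55, 1.34, 1.3 and 2.42. Pycr1, an enzyme of proline synthesis, was the one member of the 12 with a higher value at 6 days, 5.73, 7.17, 7.5 and 8.06 TPM against 9.99, 12.6, 9.78 and 10.1, a log2 fold change of 0.45 ± 0.07 (SE). Tnc, the matrix protein tenascin C, had 0.481, 0.501, 0.421 and 0.515 and 0.285, 0.258, 0.352 and 0.336 TPM, under the threshold of being on, and Trank1, Ikzf4, Gm47611 and Ubap1l had means under 1 TPM at both times. Across the lists without a fold threshold 2 members passed, Hspg2, with 17.6 ± 3.24 TPM at 3 days and 13.99 ± 2.26 at 6 days (SD, n = 4), and Fn1, with 40.1 ± 6.98 and 29.9 ± 2.24, both lower at 6 days.

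**Figure D5:**
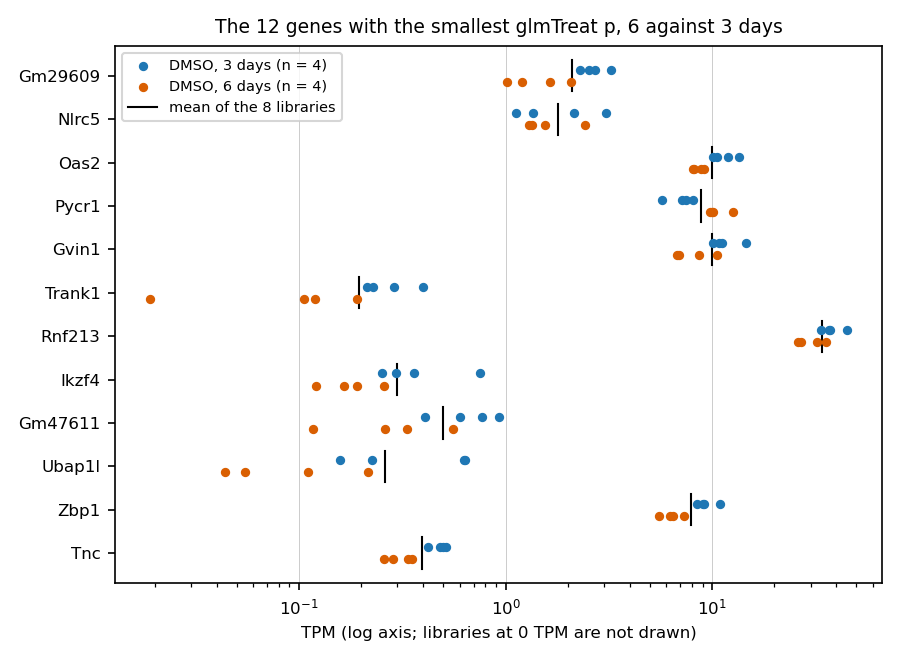
TPM on a log axis in single DMSO libraries at 3 days (blue) and 6 days (orange) for the 12 genes with the smallest glmTreat p between the times, with the mean of the 8 as a black bar. Oas2 lies between 8.05 and 13.4 TPM with the times apart, Pycr1 alone has its 6-day libraries above those of 3 days, and Trank1, Ikzf4, Gm47611, Ubap1l and Tnc stay under 1 TPM in all libraries.

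The baseline genes that marked DMSO against DOX were read from the threshold. Of the genes on in all 8 DMSO libraries, 24 were off in all 8 DOX libraries, and 6 genes showed the reverse. These sets follow from the rule, so no test is given for them, and across all genes edgeR's glmTreat called 7.22% lower and 5.3% higher with DOX at 3 days and 11.6% lower and 10% higher at 6 days. Among the 24, Fer1l6, a ferlin, had 1.47 to 3.04 TPM in DMSO and 0.087 to 0.593 in DOX, a log2 fold change of -3.41 ± 0.29 (SE) at 6 days that was the lowest of the set. Tmprss11e, a membrane protease, had 1.42 to 2.75 and 0.194 to 0.818, and Havcr1, the tubular injury marker KIM-1, 2.9 to 4.09 and 0.487 to 0.986. Sgk2, a serum and glucocorticoid regulated kinase, and Lncenc1, a long non-coding RNA gene, followed with means of 1.62 and 1.78 TPM in DMSO. The levels were low throughout, since Havcr1 with a mean of 3.33 TPM was the highest of the 24 in DMSO. Itga1 was the only integrin of the set, at 1.56 to 2.54 in DMSO and 0.637 to 0.881 in DOX. Of the 6 genes off at baseline and on with DOX, Avil, an actin-severing relative of villin, ran from 0.115 to 0.556 TPM in DMSO and 2.48 to 7.66 in DOX, a log2 fold change of 4.62 ± 0.20 (SE) at 6 days. Car6, a secreted carbonic anhydrase, had 0.156 to 0.59 and 1.96 to 4.75 TPM, Ostn, a secreted peptide gene, 0.106 to 0.543 and 1.11 to 3.63, Hhipl1 0.277 to 0.686 and 1.31 to 2.6, and Akna 0.507 to 0.871 and 1.6 to 3.31. Mei4 completed the set.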

How the data were processed

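Polyadenylated RNA of 16 mIMCD3 libraries was sequenced by the authors as paired reads, aligned to GRCm38.p6 with STAR 2.6.0c and quantified with Salmon 0.14.10, per the submitters' processing notes. The deposited TPM values are the authors' gene-level abundances, in which a gene is divided by its transcript length, and the deposited estimated counts are not normalized and hold fractions. The library kit was directional, but whether strand was used in the quantification is not given in the sources used here. TPM levels rest on the transcript models, so copies of a gene can share its reads.

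Groups came from the sample labels, with 4 libraries for each agent and time. For the 8 DMSO libraries, genes were called on, crossing or off at 1 TPM, and the median, SD, lowest and highest TPM were computed with Python 3.11.15 (pandas 2.3.3, numpy 2.4.6, matplotlib 3.10.9). A total of 68 gene lists was written from general knowledge, and the members and lists were chosen with earlier results of these data known. Genes named in the text were the 20 with the highest mean, up to 5 highest members of each list, all receptors for additives of the medium, markers that were on or at 0, the 12 with the smallest p between the times, the 5 highest and 5 lowest CVs at a mean of at least 10 TPM, and up to 5 in each direction that switched between DMSO and DOX. Some genes that these rules name are not reported here. Other genes were named after their values were seen, and these include list members that were off, the high genes of no list, and further members of a list beside its highest.

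The estimated counts, rounded to integers, were fitted over all 16 libraries with edgeR 4.0.16 in R 4.3.3 (TMM normalization, at least 1 CPM in at least 4 libraries, 13234 genes, robust glmQLFit, glmTreat at 1.2-fold, two-sided, Benjamini-Hochberg adjusted p under 0.05). The floor of 3 counts covers counting error only, whereas each SE from the edgeR fit also includes the spread between libraries. The fit was tested on simulated counts of DMSO at 6 days against 3 days, where it recovered 99.5% of 200 genes changed by 2-fold among 13085 and made 1 call among 13073 genes with no change. The changed genes were drawn only from those above a minimum mean CPM, and counts were drawn independently for each gene and library. The simulation therefore does not speak to smaller changes, to low genes or to factors that many genes of a library share. Alternatives were DESeq2 1.42.0 and limma 3.58.1 on log2(TPM + 1), other normalizations, filters and thresholds, a replicate block, and leaving out each library. Shared sequence was counted as stretches of 31 bases between GENCODE M21 transcripts. The table of TPM lacks 1039 genes of the count table, which hold 0.212% to 0.366% of the counts.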

Additional observations from a re-analysis of the deposited data

Results flagged for a closer look

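A library was marked where its gap to the nearest of the other 3 of its group divided by the group's range was over Dixon's critical value for 4 values. The 261 genes given with values were examined at both times, which makes 522 groups, and 24 were marked, where chance marks about 1 in 20. The number marked was thus near the share that chance gives, and a single mark is not a result about its gene. Some of the genes, such as Hist1h2af, were named for their spread between libraries, so their marks partly follow from that choice. DMSO-6D replicate 1 held 10 of the 24 marks. In that library Hist1h2af had 53.5 TPM against 2.22 to 7.55 in the other 3, Ccn1 349 against 216 to 238, and Gapdh 4868 against 4215 to 4311. Ifnar2 had 61.8 TPM there against 52.4 to 53.7, Pkp2 52.1 against 43.6 to 44.98, and Nid1 0.141 against 0.052 to 0.064. The same library was low for Gja1, with 25.4 TPM against 29.7 to 30.2, for Abcb1b, with 13.05 against 16.2 to 16.4, for Kcnj1, with 0 against 0.158 to 0.185, and for Calb1, with 0.752 against 2.82 to 3.12. It was also the library with the lowest Kap, and the cause of these values was not tested.

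DMSO-6D replicate 2 was high for Rps12-ps3, with 8872 TPM against 8274 to 8374, and for Pycr1, with 12.6 against 9.78 to 10.1, and low for Myc, with 68.5 against 76.3 to 77.3. It was also the only 6-day library above 0 for Adra1a, at 0.025. DMSO-6D replicate 3 was high for Sdc4, with 96.3 against 92.2 to 92.5, and for Itga8, with 0.228 against 0 to 0.027. At 3 days, replicate 1 was low for Pkm, with 1079 against 1186 to 1198, and high for Itga8, with 0.239 against 0, and for Calb1, with 3.36 against 1.06 to 1.21. Replicate 2 was high for Col1a1, with 0.437 against 0.058 to 0.121. Replicate 3 was low for Atp6v0d2, with 0 against 0.115 to 0.133. Replicate 4 was high for Plod2, with 71.4 against 67.1 to 67.8, and for Chrnb1, with 44.4 against 37.998 to 38.6, and it was the only 3-day library above 0 for Adra1d, at 0.031.

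Among the 1039 genes that have estimated counts but no TPM, 33 are protein-coding. The highest is AC102496.1, annotated as a lincRNA, with a mean of 50846 estimated counts over the 8 DMSO libraries (lowest 30710, highest 62938). That is 0.261% of the counts and rank 18 among all genes by count.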

How the results depend on the processing

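The number of genes on was 11826 at 1 TPM in all 8 libraries and lay within 1.5 times of it under each alternative run, from 9251 at 5 TPM to 13313 by the mean. Without each library in turn it ran from 11850 to 11912, and for protein-coding genes from 10889 to 10920. In the 4 libraries under 100 TPM of Kap 12136 genes were on. The 61 channel genes on became 38 at 5 TPM. Single lists moved as well, among them HOX genes, from 22 on to 11 at 5 TPM. Potassium channels went from 7 to 12 at 1 CPM in all 8 libraries, and aquaporins from 0 to 2 by a mean of at least 1 TPM. Of the 261 genes given with values, 21 had a mean over the 4 libraries under 100 TPM of Kap that differed by over 1.5 times from that over all 8, among them Kap (35.7 against 98.8 TPM), Gpx3 (17.1 against 43.4), Fxyd2 (5.47 against 12.01), Slc34a1 (2.97 against 8.22) and Hist1h2af (28.7 against 16.5). Rps27 had a mean of 45.8 TPM at 6 days against 74.0 over all 8. TMM scaling moved 0 of them by that much, and leaving out 1 library moved 7, each with a mean under 1 TPM. The sets of 24 and 6 genes that switched between DMSO and DOX became 14 and 2 at 0.5 TPM, while 31 genes were on in DMSO and off with DOX at 2 TPM.

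Between 6 and 3 days, 0 genes were called with RLE factors, DESeq2, limma, a filter of 1 CPM in all 16 libraries, the 8 DMSO libraries alone, and without each library in turn. Without a filter 6 were called (1 higher, 5 lower) and without a fold threshold 62. Without the threshold the count was 72 in the 8 DMSO libraries alone, 210 with log2 Kap TPM as a covariate, and, without DMSO-3D replicates 1 to 4 in turn, 27, 15, 15 and 7 and, without DMSO-6D replicates 1 to 4, 74, 10, 8 and 209. These alternatives were chosen after the data were seen. The cause of these moves was not tested.

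DMSO libraries of the same replicate number did not resemble each other in their deviations from the group means. The correlations were -0.433, -0.0476, -0.0271 and 0.0562, and 0 of 4 correlated best with their own number. These values cannot show whether libraries of the same number shared a batch. The replicate block gave 0 calls with the threshold and 12 without it.

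Depth limits the lowest levels, where values rest on a few counts. Arms of 4 libraries limit which differences between times are detectable, and transcripts that moved with Kap limit calls on genes of other segments.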
